A study of Homo sapiens with 4 samples.

Results

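The genes of amino acid transport were examined in U87MG cells, an established human glioblastoma line, after caspase-2 silencing. The measured set holds every probe set whose single gene symbol in the platform annotation begins with SLC1A, SLC3A, SLC6A, SLC7A, SLC36A, SLC38A or SLC43A. These are 61 probe sets for 59 genes, among 32321 probe sets on the array, of which 19158 have 1 gene symbol and represent 18404 genes. SLC1A5 and SLC7A14 have a pair of probe sets each. The rule used names only and no measured value, though it was written with earlier results of these data known. It also takes in SLC7A6OS, a gene named for the strand opposite SLC7A6 that encodes no amino acid carrier, and the SLC6A carriers of monoamines and creatine. Another 3 probe sets carry a name of these families together with other genes and were left out of the set.

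Total RNA was hybridized to 4 Affymetrix Human Gene 1.0 ST arrays, 2 from cells transfected with a control siRNA and 2 from cells transfected with an siRNA against CASP2, all with the same lipid reagent and in the same medium. Within each group the arrays are labelled as biological replicates. All values come from 1 tumour line, and in such bulk RNA a lower level in every cell and a loss in some cells cannot be told apart. The study asked which genes respond when caspase-2 is lost.

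Amino acids cross membranes through several unrelated carrier families. SLC1A members bring glutamate, aspartate or small neutral amino acids into the cell with sodium. SLC3A proteins are heavy chains that carry SLC7A light chains to the plasma membrane, where the pair exchanges one amino acid for another, such as glutamate for cystine. SLC6A members move neurotransmitters and neutral amino acids, SLC38A members move glutamine and alanine, SLC36A members work with protons at lysosomes and the cell surface, and SLC43A members carry large neutral amino acids without an ion. Glioma cells are known for cystine uptake with glutamate release, and for high use of glutamine.

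Values are log2 values after Robust Multi-Array Average (RMA) normalization, and a difference is the mean of the CASP2 siRNA arrays minus that of the control siRNA arrays, so that 1 unit is a doubling. The target CASP2 was at 10.74 and 10.69 on the control arrays and at 8.79 and 8.52 on the silenced arrays, far apart and in the direction of the labels. Mesenchymal glioma markers were bright on every array, with VIM at 12.94 to 13.04 and CD44 at 12.92 to 12.97. Of 5 markers of microglia and blood cells, 4 had a mean below the reference for dim probe sets defined in the next paragraph, PTPRC at 3.67 to 3.76 and AIF1 at 3.64 to 4.07 among them, and the lysosomal gene CD68 was bright at 12.20 to 12.30. Of 6 astrocyte markers 4 were above it, GJA1 (10.84 to 11.10), SOX9 (8.39 to 8.50), GFAP (6.34 to 6.79) and ALDH1L1, and S100B and AQP4 were below. So were 4 of 6 neuron markers and 3 of 4 measured oligodendrocyte markers above it. A level above the reference thus does not tell these cell types apart. Over all probe sets, the standard deviation of the difference between arrays was 0.205 for the control pair and 0.348 for the silenced pair. Of the silenced arrays, CASP2 siRNA replicate 2 stood farther from the controls.

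Carriers brighter than the reference for dim probe sets were found in all 7 families. As the table holds no detection call, the 350 probe sets of olfactory receptor genes served as a reference for dim signal, since cultured glioma cells are not known to use these receptors. Their 95th percentile was a log2 value of 5.55. Of the 61 probe sets, 41 (67.2%) had a mean over the 4 arrays at or above it, beside 71.4% of all probe sets with 1 gene symbol. Probes differ in affinity, so the levels of different genes below describe brightness on the array and not the order of mRNA amounts.

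Every family had bright and dim members apart from SLC43A, whose 2 probe sets both lay slightly above the median of all probe sets. In SLC38A the glutamine carriers SLC38A2 and SLC38A1 had control means of 12.33 and 12.23, and 9 of 12 probe sets were above the reference. In SLC7A the brightest were SLC7A11, the cystine/glutamate exchanger (10.95), SLC7A6, an exchanger of cationic for neutral amino acids (10.79), SLC7A1, the cationic carrier (10.73), and SLC7A5, the main carrier of large neutral amino acids (10.66), while 6 of 15 were below the reference. In SLC1A the glutamine exchanger SLC1A5 led with 10.83, followed by the glutamate carrier SLC1A1 with 9.27. SLC3A2 had 11.27 and its kidney relative SLC3A1 only 4.32.

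SLC6A, the largest family, was mostly of middle or low brightness. Of its 18 probe sets, 12 were above the reference but only 6 exceeded the median of all probe sets on every array. The brightest was SLC6A6, the taurine carrier (control mean 10.49), followed by the neutral amino acid carrier SLC6A15 (9.78), the creatine carrier SLC6A8 (9.38) and SLC6A17 (9.32), a carrier of synaptic vesicles. The serotonin carrier SLC6A4 (5.05) and the glycine carrier of inhibitory neurons, SLC6A5 (4.87), were below the reference. In SLC36A the lysosomal carrier SLC36A1 (9.15) and SLC36A4 (8.43) were above it, and SLC36A2 (4.78) and SLC36A3 (3.90) below.

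**Figure D1:**
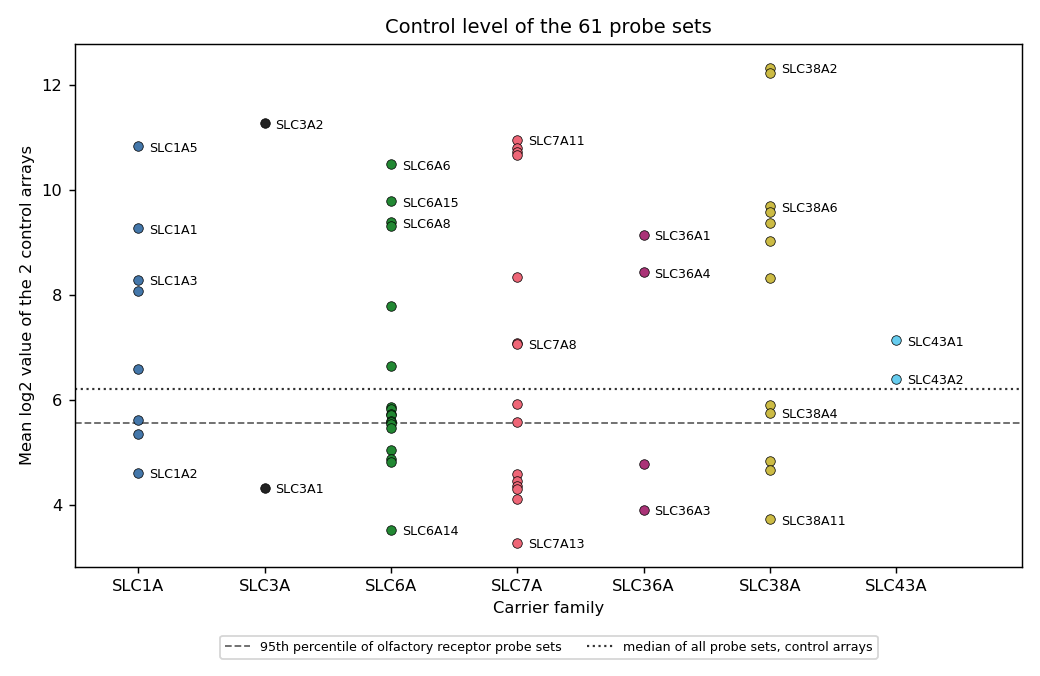
Mean log2 value of the 2 control arrays (y axis) for each probe set (points) by family (x axis), with the 95th percentile of olfactory receptor probe sets (dashed line, 5.55) and the median of all probe sets on the control arrays (dotted line). Each family but SLC43A reaches from dim probe sets near or below the dashed line to bright ones, up to 12.33 for SLC38A2.

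No carrier probe set passed the test for a change after caspase-2 silencing. The differences ran from -0.23 for SLC38A6 to 0.29 for SLC38A3, a sodium-coupled glutamine carrier, and both are smaller than a 1.5-fold change. The study called a gene past a 1.5-fold change with an unadjusted p below 0.05. With limma's p, 0 of the 61 were higher and 0 were lower, beside 0.331% of all probe sets called higher and 0.362% called lower. None had an adjusted limma p under 0.05, and the share of all probe sets that did was 0%. The silenced target CASP2 failed it too, with a difference of -2.06, an unadjusted limma p of 4.02e-05 and an adjusted p of 0.9999. The adjusted p therefore cannot tell an unchanged carrier from a changed one in these data. An unadjusted limma p under 0.05 was found for 2 members, SLC36A1 and SLC6A6, both higher, while 1.54% of all probe sets passed that mark as higher and 1.49% as lower. By the methods' t-test the number was 0.

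For most carriers, as for most probe sets of the array, the interval on the array value was narrow. The 95% interval lay inside a 1.5-fold change in both directions for 54 of the 61 (88.5%). That share was 75.7% over all probe sets and 82.8% over those with 1 gene symbol. The other 7 were SLC6A18, SLC6A12, SLC6A19, SLC7A4, SLC7A5, SLC36A4 and SLC38A3. Their intervals reached past 1.5-fold upward, and that of SLC6A18 downward as well. Of the 54, 35 were above the reference for dim probe sets and 19 below it. RMA compresses folds near background, so the intervals of those 19 bound the signal and not the change in mRNA.

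**Figure D2:**
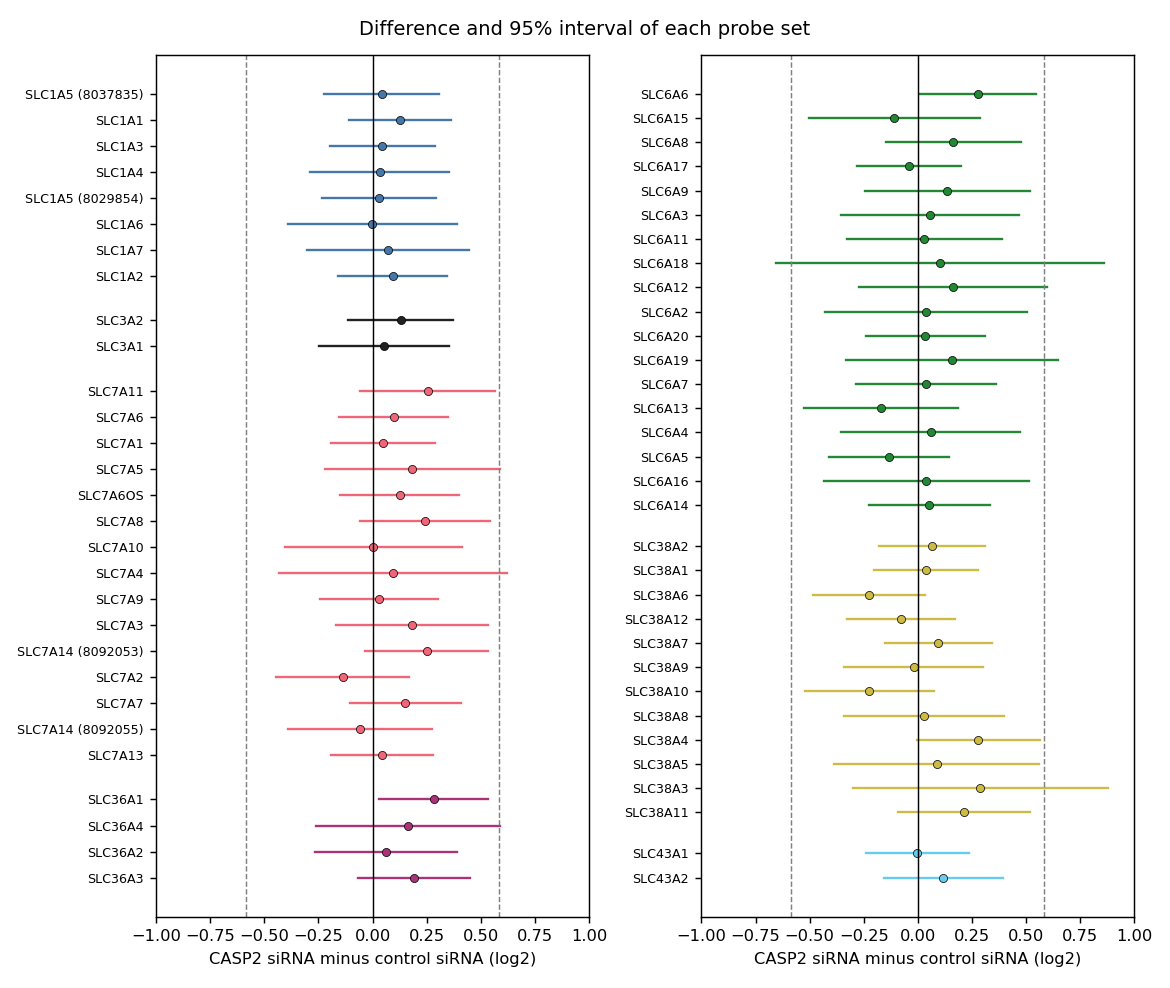
Difference in log2 value, CASP2 siRNA minus control siRNA (x axis), for each of the 61 probe sets (y axis, coloured and grouped by family in order of control level), with points for the estimate, bars for the 95% limma interval and dashed lines at a 1.5-fold change. All points lie between -0.23 and 0.29, and the bars of 54 stay inside the dashed lines.

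Small differences above 0 were more frequent than below 0. Of the 61, 49 (80.3%) were above 0 and the median was 0.059, while 50.7% of all probe sets were above 0 with a median of 0.0022. The 2 silenced arrays both exceeded the 2 control arrays for 22 of the 61 (36.1%), beside 14.5% of all probe sets, and below both for 6, beside 15.1%. The 323 probe sets of other SLC families had 55.4% above 0, a median of 0.017 and both silenced arrays above both controls in 18.6%. These shares are descriptions of the lists, and no test was made of them.

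Over the 61 together, the lean above 0 was carried largely by 1 array. Relative to the control mean, the median member was at 0.0088 on CASP2 siRNA replicate 1 and at 0.16 on replicate 2. On replicate 1, 31 of the 61 were above the control mean, and on replicate 2, 48 were. The count above 0 was therefore 31 of 61 without CASP2 siRNA replicate 2, and between 45 and 48 without any other single array. By family, those above the control mean on replicate 1 were 4 of 8 in SLC1A, 2 of 2 in SLC3A, 4 of 18 in SLC6A and 11 of 15 in SLC7A. In SLC36A, SLC38A and SLC43A they were 3 of 4, 6 of 12 and 1 of 2. On replicate 2 the olfactory receptor probe sets also lay above their control mean, with a median of 0.093, and so did all dim probe sets with 1 gene symbol, with a median of 0.078. Members below the reference had a median of 0.17 on that array and members above it 0.14, while all probe sets with 1 symbol above the reference had -0.033. The part of this array in the result was not tested beyond these values.

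**Figure D3:**
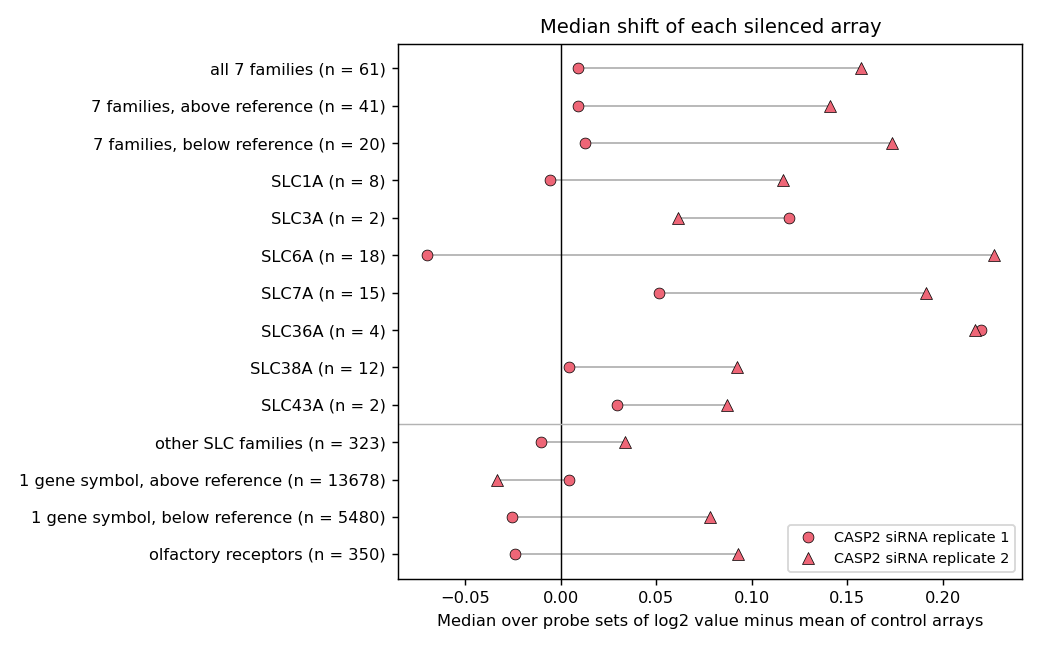
Median over probe sets of the log2 value minus the mean of the control arrays (x axis), on CASP2 siRNA replicate 1 (circles) and replicate 2 (triangles), for the 7 families together and singly and, below the line, for other probe sets (y axis, with their numbers). Replicate 2 lies to the right of replicate 1 for the 7 families together (0.16 against 0.0088), while the symbols nearly coincide in SLC36A and are in the opposite order in SLC3A.

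The heavy chain SLC3A2, also known as 4F2hc or CD98, was at 11.27 and 11.28 on the control arrays and at 11.38 and 11.43 on the silenced arrays. The silenced arrays both lay above the controls, by 0.13 on average (SE 0.091, 95% interval -0.11 to 0.37). Its 6 light chains were measured by 1 probe set each, and all 6 differences were above 0, with a median of 0.17, though that of SLC7A10 turned to -0.016 when each array was centred on its median. For 4 of them the silenced arrays both lay above the controls, as they did for 14.5% of all probe sets. SLC7A11 forms the cystine/glutamate exchanger and feeds glutathione synthesis. It was at 11.07 and 10.84 on the control arrays and at 11.22 and 11.20 on the silenced arrays, a difference of 0.25 (SE 0.12, interval -0.058 to 0.57) that was 0.14 without control siRNA replicate 2. SLC7A8, the second carrier of large neutral amino acids, was at 6.98 and 7.17 against 7.36 and 7.27, a difference of 0.24 (SE 0.11, interval -0.059 to 0.54) that was 0.15 without control siRNA replicate 1. In both genes the gap between the control arrays was wider than the gap from the higher control to the lower silenced array.

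SLC7A5, the light chain that imports leucine and other essential amino acids, was at 10.57 and 10.76 on the control arrays and at 10.69 and 11.00 on the silenced arrays. These groups overlapped, and the difference of 0.18 had an interval from -0.22 to 0.59. It was 0.026 without CASP2 siRNA replicate 2 and 0.34 without replicate 1. SLC7A6 differed by 0.099 (-0.15 to 0.35), and SLC7A7, a related light chain with a dim probe set, by 0.15 (-0.11 to 0.41). SLC7A10, an exchanger of small neutral amino acids such as serine, had silenced arrays on opposite sides of the controls, 6.88 and 7.25 against 7.07 and 7.06, with a difference of 0.0039 (-0.41 to 0.41). SLC3A1, the heavy chain of the cystine carrier of the kidney, and SLC7A9, its light chain, had differences of 0.051 and 0.028.

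**Figure D4:**
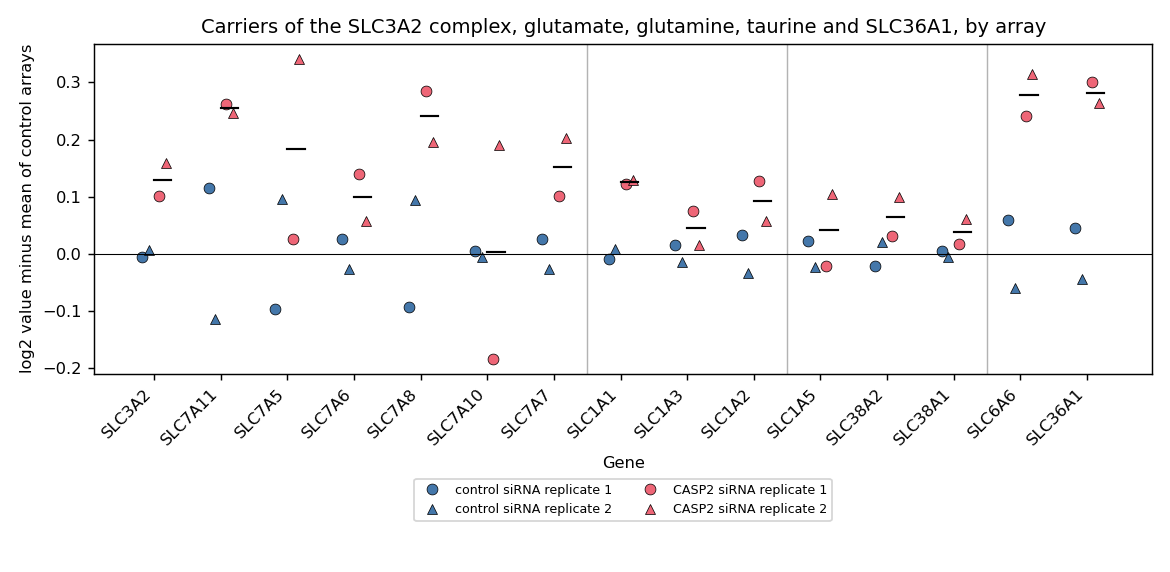
Deviation in log2 value from the control mean (y axis) on each array for SLC3A2 with its light chains, the glutamate carriers, the glutamine carriers, and SLC6A6 and SLC36A1 (x axis, from left to right, separated by lines); blue is control siRNA, red is CASP2 siRNA, circles are replicate 1, triangles are replicate 2 and short lines are means of the silenced arrays. SLC1A5 is shown by its brighter probe set. The silenced arrays lie above both controls for SLC36A1 (mean 0.28), SLC6A6 (0.28) and SLC7A11 (0.25), and on opposite sides of them for SLC7A10.

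Start sites of SLC3A2 and of SLC7A1 are shown because these are the promoter windows of the measured genes that hold the letters of both stress elements known from carrier genes. The amino acid response element, bound by ATF4, was searched as TGATGNAA, and the core of the antioxidant response element, bound by NRF2, as TGACNNNGC, each on both strands. The RefSeq windows on GRCh38.p14 reach from 250 bases before to 50 bases after a start, and each gene may have several. Capitals mark the matches, which do not overlap each other. The SLC3A2 window is chr11:62881449-62881748 on the plus strand and the SLC7A1 window chr13:29595639-29595938 on the minus strand, both printed 5′ to 3′ along the gene.
SLC3A2: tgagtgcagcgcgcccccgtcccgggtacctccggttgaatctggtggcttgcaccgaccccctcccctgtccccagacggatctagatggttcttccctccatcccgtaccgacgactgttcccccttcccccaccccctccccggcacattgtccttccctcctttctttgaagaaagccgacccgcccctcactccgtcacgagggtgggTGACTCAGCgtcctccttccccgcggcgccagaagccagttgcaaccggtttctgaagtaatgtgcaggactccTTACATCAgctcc
SLC7A1: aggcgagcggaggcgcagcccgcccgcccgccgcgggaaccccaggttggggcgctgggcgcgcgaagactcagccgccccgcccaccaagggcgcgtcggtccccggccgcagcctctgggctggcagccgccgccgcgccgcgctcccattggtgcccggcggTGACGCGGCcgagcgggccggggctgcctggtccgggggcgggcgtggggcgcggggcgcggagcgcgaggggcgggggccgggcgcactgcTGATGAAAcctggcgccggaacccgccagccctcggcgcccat

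Of the 59 genes, 46 had an entry in the window table, with 68 windows, and SLC7A11, SLC6A6 and SLC1A2 were among those without one. The amino acid response letters were found in 6 of the 46 genes (13.0%), SLC1A3, SLC1A4, SLC1A5, SLC3A2, SLC7A1 and SLC38A1, beside 4.46% of all 27305 genes in the table, or in 8.82% of the member windows beside 3.62% of all windows. The antioxidant core was found in 7 (15.2%), SLC1A3, SLC1A5, SLC3A2, SLC7A1, SLC7A5, SLC7A6 and SLC7A7, beside 16.1% of all genes, or in 10.3% of the member windows beside 13.3% of all windows. The 6 genes with the amino acid response letters were all above the reference for dim probe sets, and their differences after silencing ranged from 0.031 for the dimmer SLC1A5 probe set to 0.13 for SLC3A2. A match describes letters in the reference sequence and is no measure of binding.

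The cationic carriers take up arginine and lysine. SLC7A1, the bright member whose window is printed above, was at 10.75 and 10.71 on the control arrays and at 10.79 and 10.76 on the silenced arrays, a difference of 0.046 with an interval of -0.19 to 0.29. SLC7A2, an arginine carrier of liver and macrophages, was dim at 4.26 and 4.47 against 4.21 and 4.24, the largest decrease without overlap in SLC7A (-0.14, interval -0.44 to 0.17, and -0.031 without control siRNA replicate 2). SLC7A14, a lysosomal relative, gave unlike values in its 2 probe sets, both below the reference. One was at 4.37 and 4.52 against 4.74 and 4.65, a difference of 0.25 (-0.035 to 0.54). The other was at 4.17 and 4.03 against 4.15 and 3.93, a difference of -0.059 (-0.39 to 0.27).

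The glutamate carriers clear glutamate from the extracellular space of the brain. SLC1A1, the bright member in these cells, was at 9.26 and 9.28 on the control arrays and at 9.39 and 9.40 on the silenced arrays. The silenced arrays were both higher and the replicates close, but the difference of 0.13 had an interval of -0.11 to 0.36. SLC1A3, an astrocyte carrier, was at 8.30 and 8.27 against 8.36 and 8.30, a difference of 0.046 (-0.20 to 0.29). Its nearest arrays almost touched, at 8.301 on control siRNA replicate 1 and 8.303 on CASP2 siRNA replicate 2. SLC1A2, the main glutamate carrier of mature astrocytes, was below the reference for dim probe sets on every array (4.58 to 4.74) and differed by 0.093 (-0.16 to 0.34). In these 3 genes the silenced arrays both lay above the controls, beside 14.5% of all probe sets, and in SLC1A6 and SLC1A7, found in cerebellum and retina, the groups overlapped.

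Glutamine enters through SLC1A5, SLC38A1 and SLC38A2, among others. Each had a bright probe set, and all differed little. SLC38A2, which cells raise when amino acids run short, was at 12.31 and 12.35 on the control arrays and at 12.36 and 12.43 on the silenced arrays, a difference of 0.065 (-0.18 to 0.31). SLC38A1 was at 12.23 and 12.22 against 12.24 and 12.29, a difference of 0.039 (-0.20 to 0.28). The brighter SLC1A5 probe set was at 10.86 and 10.81 against 10.81 and 10.94, a difference of 0.042 (-0.22 to 0.31). The dimmer one, with a control mean of 6.58, differed by 0.031 (-0.23 to 0.29). Over these 4 probe sets the intervals did not reach below -0.23 or above 0.31.

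The SLC38A family held the lowest differences of the set. SLC38A6 was at 9.69 and 9.68 on the control arrays and at 9.52 and 9.40 on the silenced arrays, a difference of -0.23 (SE 0.097, interval -0.49 to 0.032). SLC38A10 was at 8.32 on both control arrays and at 8.20 and 7.99 on the silenced arrays, a difference of -0.22 (interval -0.52 to 0.074) that was -0.12 without replicate 2. In both genes the silenced arrays were lower, with replicate 2 the farther of the pair. SLC38A9, the lysosomal arginine sensor that signals to mTORC1, had silenced arrays on opposite sides of the controls, 9.13 and 8.88 against 9.02 and 9.03. SLC38A4, a carrier best known in liver, was near the reference for dim probe sets at 5.70 and 5.80, and at 6.10 and 5.96 after silencing, a difference of 0.28 (SE 0.11, interval -0.0048 to 0.56). SLC38A3 was below the reference on every array, and its difference rests on replicate 2, with 4.73 and 4.61 against 4.66 and 5.26, a difference of 0.29 that was -0.0088 without that array. Over the 12 probe sets 8 were above 0 and 4 below, with a median of 0.052, which was 0.0041 without CASP2 siRNA replicate 2.

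SLC36A1, which exports small amino acids from lysosomes with protons and takes part in mTORC1 activation, had the smallest p of the whole set. It was at 9.19 and 9.10 on the control arrays and at 9.45 and 9.41 on the silenced arrays, and the groups were well apart. The difference was 0.28 (SE 0.094, interval 0.031 to 0.53), or 1.22-fold, with an unadjusted limma p of 0.035 and an adjusted p of 0.9999. With each array left out in turn it ranged from 0.24 to 0.33. SLC36A4 was at 8.43 on both control arrays and split after silencing, with 8.79 and 8.40, so that its difference of 0.16 was -0.035 without CASP2 siRNA replicate 1. All 4 probe sets of the family were above 0, with a median of 0.18, and 2 of them, SLC36A2 and SLC36A3, were dim. The difference of SLC36A2 was -0.064 without CASP2 siRNA replicate 2. On each silenced array, 3 of the 4 were above their control mean.

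SLC6A6, which concentrates taurine in the cell as an osmolyte, was at 10.55 and 10.43 on the control arrays and at 10.73 and 10.80 on the silenced arrays. The groups did not overlap, and the difference was 0.28 (SE 0.10, interval 0.011 to 0.54), or 1.21-fold, with an unadjusted limma p of 0.044 and an adjusted p of 0.9999. With each array left out in turn it ranged from 0.22 to 0.34. When each array was centred on its median, the unadjusted p was 0.082 for SLC6A6 and 0.086 for SLC36A1, and by the methods' t-test 0.15 and 0.14. Without control siRNA replicate 1 the unadjusted limma p was 0.13 for SLC6A6 and 0.14 for SLC36A1, and without control siRNA replicate 2 it was 0.29 and 0.25. Without CASP2 siRNA replicate 1 it was 0.053 for SLC36A1, and without replicate 2 it was 0.079 for SLC6A6. SLC6A8, the creatine carrier, was at 9.38 on both control arrays and at 9.43 and 9.66 on the silenced arrays, a difference of 0.16 (-0.15 to 0.48) that was 0.049 without CASP2 siRNA replicate 2.

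Elsewhere in SLC6A the 2 silenced arrays went apart. On CASP2 siRNA replicate 1, 4 of the 18 probe sets were above their control mean, and on replicate 2, 13 were. The family median was -0.070 on the former and 0.23 on the latter, so that its median difference of 0.047 changed sign without replicate 2. The widest split was that of SLC6A18, a carrier of the kidney, with 5.53 and 6.33 after silencing beside 5.91 and 5.75. The dopamine carrier SLC6A3 was at 6.52 and 6.90 beside 6.65 and 6.65, and the noradrenaline carrier SLC6A2 at 5.53 and 5.97 beside 5.72 and 5.70. SLC6A5 had the largest decrease without overlap in this family, at 4.84 and 4.90 against 4.66 and 4.81, a difference of -0.13 (-0.41 to 0.14).

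The facilitated carriers of large neutral amino acids were SLC43A1 and SLC43A2. SLC43A1 was at 7.14 and 7.12 on the control arrays and at 7.12 and 7.14 on the silenced arrays, a difference of -0.0020 (-0.24 to 0.24), whose sign changed under another normalization. SLC43A2 was at 6.34 and 6.46 against 6.47 and 6.57, a difference of 0.12 (-0.16 to 0.39) in which the nearest arrays almost touched.

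Genes that govern or use these carriers were examined in 4 lists, each gene by its brightest probe set. No gene of any list passed the thresholds of the study in either direction or an adjusted p of 0.05. Of 27 genes of the ATF4 amino acid response, through which scarcity of amino acids raises carriers and synthesis enzymes, 20 were above 0, with a median of 0.049. Without CASP2 siRNA replicate 2 that median was -0.012. STC2, a secreted glycoprotein of this response, was at 9.76 and 9.82 on the control arrays and at 10.09 and 10.15 on the silenced arrays, a difference of 0.33 (0.086 to 0.58). ATF4 itself was at 10.03 and 9.92 against 10.14 and 10.25, a difference of 0.22 (-0.054 to 0.49), and PSPH, the last enzyme of serine synthesis, differed by -0.28 (-0.70 to 0.13). ATF4 and PSPH have 2 probe sets each, and these values are those of the brighter one only. ASNS, the asparagine synthetase and a classical target of ATF4, had overlapping groups.

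Of 30 genes of amino acid sensing upstream of mTORC1, 12 were above 0 and 18 below, with a median of -0.019. RRAGA, a Rag GTPase that places mTORC1 on lysosomes, was at 8.54 and 8.61 against 8.93 and 8.78, a difference of 0.28 (0.0042 to 0.56). SESN3, a sestrin, was below the reference for dim probe sets (control mean 4.25) and differed by 0.24 (-0.025 to 0.50). LAMTOR2, a subunit of the Rag anchor, differed by -0.25 (-0.55 to 0.042). Of 17 enzymes of glutamine, glutamate and glutathione metabolism, 9 were above 0 and 8 below, with a median of 0.0063. ASS1, the argininosuccinate synthase, differed by 0.25 (-0.052 to 0.54), GCLC, the catalytic subunit of glutathione synthesis, by 0.24 (-0.068 to 0.56), and GFPT1, which uses glutamine for hexosamines, by 0.15 (-0.12 to 0.41). Of 19 amino acid carriers and partners from other families, 11 were above 0, with a median of 0.028. CLTRN, which helps kidney carriers reach the surface, differed by 0.18 (-0.083 to 0.45), the vesicular glutamate carrier SLC17A6 by -0.15 (-0.39 to 0.091) and the mitochondrial glutamate carrier SLC25A22 by 0.14 (-0.11 to 0.39). The probe sets of CLTRN and SLC17A6 were below the reference for dim probe sets, with control means of 3.91 and 4.13.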

How the data were processed

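Gene expression in U87MG cells was measured on 4 arrays, 2 per group as given by the labels. The values deposited by the authors are RMA log2 values for 32321 probe sets (software version: not given in the sources used here). RMA makes the arrays alike, so a shift common to all genes is largely removed, and it compresses folds near background. The deposited arrays were not fully equal. The median of all probe sets was 6.21 on both control arrays, 6.18 on CASP2 siRNA replicate 1 and 6.28 on replicate 2. The upper quartile was 8.66 and 8.68 on the control arrays, 8.69 on CASP2 siRNA replicate 1 and 8.58 on replicate 2. Gene names came from the platform annotation. All 61 members kept their symbol in RefSeq (GRCh38.p14). Promoter windows were read from a RefSeq table of that build.

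Groups were compared over all probe sets with the lmFit and eBayes functions of limma 3.58.1 (R 4.3.3); tests were two-sided, p-values were adjusted by Benjamini-Hochberg, and prior and residual degrees of freedom were 2.47 and 2. The fit was also run on simulated arrays with known folds, as a check of the mean difference only and not of the power to call a change. Precision is limited by the number of arrays, with which the smallest p of an exact permutation test is 0.333. The alternatives were the methods' t-test (standard deviation raised to its median), eBayes with trend and robust options, further quantile normalization, median centring, leaving out dim probe sets, linear means, 1 probe set per gene, a replicate block and leaving out each array.

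The members and lists were chosen with earlier results of these data known. Genes named are CASP2, in each family the brightest probe set and the largest increase and decrease without overlap, members past a threshold, SLC3A2 with its light chains, the main glutamate and glutamine carriers, genes with several probe sets, and the 3 smallest p of each list. Others were named after their values were seen.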

Additional observations from a re-analysis of the deposited data

How the results depend on the processing

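The count of members past the thresholds of the study was 0 in each direction under the alternatives of test, normalization, centring, dim filter, scale and block. Without CASP2 siRNA replicate 1 it was 1 higher, SLC38A3 (difference 0.59), so leaving out single arrays gave 0 to 1 higher. Over all probe sets, 107 higher and 117 lower became 35 and 37 by the methods' t-test and 33 and 45 without dim probe sets, where fewer were tested, and 118 to 414 higher and 157 to 592 lower with single arrays left out, the most without a silenced array. Members with an unadjusted p under 0.05, 2 in the fit reported, numbered 5 with trend and robust options, 3 without dim probe sets, 0 after median centring or without either control array, 3 without CASP2 siRNA replicate 2 and 15 without CASP2 siRNA replicate 1. Their count above 0 was 48 to 51 under the alternatives on normalization and scale, chosen after seeing the data, and 33 of the 41 left without dim probe sets.

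With 1 probe set per gene, which was run for medians only, the median over all members was 0.063. With single arrays left out, median differences ranged from 0.0088 to 0.16 over all members, from -0.0059 to 0.12 in SLC1A, 0.058 to 0.12 in SLC3A, -0.070 to 0.23 in SLC6A, 0.052 to 0.19 in SLC7A, 0.16 to 0.22 in SLC36A, 0.0041 to 0.092 in SLC38A and 0.029 to 0.087 in SLC43A. The median of SLC36A was 0.22 without dim probe sets, which left 2 of its 4. The sign of SLC43A1 turned under further quantile normalization (0.0065) and that of SLC7A10 after median centring (-0.016). With single arrays left out the differences ranged from -0.013 to 0.0086 for SLC43A1, from -0.18 to 0.19 for SLC7A10, from -0.021 to 0.10 and from -0.032 to 0.093 for the 2 SLC1A5 probe sets, and from -0.17 to 0.052 for the dimmer SLC7A14 probe set. The cause was not tested. At the 99th percentile of the olfactory receptors or at the median of all probe sets as reference, 30 members each were above it in place of 41.

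Replicate numbers are shared between the groups, but the labels do not say that they pair the arrays, and the deviations of same-numbered arrays correlated with r = 0.020. With the replicate number as a block, 0 members passed the thresholds, 0 had an unadjusted p under 0.05, and 142 higher and 160 lower probe sets were called in all.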

Other observations

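Another 3 probe sets carry the name of a member family together with other genes and cannot be assigned to 1 of them. The one shared by SLC43A3, a purine nucleobase carrier, and PRG2 was bright, at 12.88 and 12.82 on the control arrays and at 12.76 on both silenced arrays, a difference of -0.085 (95% interval -0.33 to 0.16). The one shared by SLC6A8 and the copies SLC6A10P and SLC6A10PB was at 10.51 and 10.42 against 10.51 and 10.84, a difference of 0.21 (-0.17 to 0.60), beside 0.16 for the probe set of SLC6A8 alone. The one shared by SLC7A5P2, SMG1 and related copies was at 9.89 and 9.95 against 10.05 and 10.03, a difference of 0.11 (-0.13 to 0.36). SLC7A6OS, which shares its locus name with SLC7A6 and is no carrier, was at 8.32 and 8.34 against 8.54 and 8.38, a difference of 0.13 (-0.15 to 0.40). None passed the thresholds of the study or an adjusted limma p of 0.05.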
